A study of Mus musculus with 2 samples.

Results

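Tmem119-positive macrophages are cells of the pressure-loaded mouse heart that carried the complement C1q genes of a macrophage and at least 1 transcript of Tmem119, a membrane protein best known as a marker of microglia. They were chosen by a rule on counts of unique molecular identifiers (UMIs, each a counted transcript). C1qa, C1qb and C1qc had to make up 0.3% or more of a cell's UMIs, which defines a C1q-high cell, and Tmem119 had to have 1 UMI or more. Spp1 and Gpnmb (lipid-laden macrophages), Lyve1 and Timd4 (resident macrophages), Ly6c2 (monocytes) and Mki67, Top2a and Birc5 (dividing cells) were each limited to a sum of 1 UMI. The MHC class II genes H2-Aa, H2-Ab1 and H2-Eb1 together had to stay under 2% of UMIs. The rule found 459 cells among 9258 C1q-high cells and 12407 cells in all. The Control library held 39 of them and the LOY library 420. Every gene in the rule therefore describes how the cells were selected and is not a finding.

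The study compared mice with a Control bone marrow transplant (Control BMT) and mice with a LOY bone marrow transplant, LOY standing for loss of the Y chromosome, as its title says. Both groups had TAC, (transverse aortic constriction), an operation that makes the heart pump against a narrowed aorta. From left ventricles, viable CD45+ RFP+ cells, which the labels call derived from the transplant, were sorted, and about 8000 cells per group went into droplet 3' RNA sequencing. Each group was 1 library of cells from 3 mice, pooled after the sort. The RFP sequence in the feature list had 0 UMIs in both libraries, so the sort could not be checked from the counts. The strain, age, time after TAC, RFP construct and the way LOY was made are not given in the sources used here. With 1 library in each group there were no replicates and no tests, and LOY cannot be told apart from any other difference between the libraries. All intervals are 95% intervals that cover counting error only.

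C1q-positive macrophages are the long-lived phagocytes of heart muscle. Some settle before birth and renew themselves, while others descend from blood monocytes, above all after injury. Tmem119 itself was described in bone-forming cells and in microglia, the macrophages of the brain, where its expression depends on transforming growth factor β (TGF-β), a cytokine that also drives scar formation in the heart. Of the other genes given as markers of these cells, Abi3 encodes an adaptor of the actin-remodelling WAVE complex, Cyp4f18 a cytochrome P450 that inactivates leukotriene B4, and Apoc2 the cofactor of lipoprotein lipase. On build mm10, Tmem119 lies on chromosome 5 (113793729 to 113800516), Abi3 on chromosome 11 (95830074 to 95842476), Cyp4f18 on chromosome 8 (71988482 to 72009626) and Apoc2 on chromosome 7 (19671579 to 19677941), all as protein-coding genes of the minus strand.

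The Control library had 42640861 UMIs over 7276 barcodes and the LOY library 18710715 over 5475, with 31 barcodes in both and no member of the rule among them. Tmem119-positive macrophages had a median of 7283 UMIs (3703 to 19087) in the Control library and 3180.5 (539 to 16397) in the LOY library, against medians of 5885 and 3263 in the other C1q-high cells. Levels are summed UMIs per 1000000 UMIs of the same cells (CPM). Summed, they gave 322850 and 1519712 UMIs, so that 3 counts stood for 9.29 CPM in Control and 1.97 in LOY. General macrophage genes were present in both libraries: a Csf1r UMI was found in 37 of 39 and 390 of 420 cells, an Adgre1 UMI in 37 and 264, and a Cd68 UMI in 38 and 333.

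A few of the chosen cells also carried transcripts of other cell types. In the Control library 1 cell held 306 of the 370 fibroblast-marker UMIs of all 39 cells, the next cell holding 5, and another held 27 of 87 B cell-marker UMIs. In the LOY library 4 cells held 121 of 336 cardiomyocyte-marker UMIs and 1 cell held 139 of 192 neutrophil-marker UMIs. Leaving out every cell with 20 or more such UMIs removed 2 Control and 6 LOY cells, and several results are also given without them. As summed levels over the whole marker list, fibroblast genes had 1146 CPM in the Control cells against 142 in other C1q-high cells, and cardiomyocyte genes 221 CPM in the LOY cells against 163. Nonclassical monocyte genes had 220 CPM against 184 in Control and 71.7 against 86.4 in LOY. The lists of B cell, T and NK cell, neutrophil, dendritic cell and endothelial markers had no higher sum in Tmem119-positive macrophages than in other C1q-high cells of the same library.

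Y-linked transcripts checked the LOY label. Tmem119-positive macrophages of the Control library had 37 Y-linked UMIs, or 115 CPM (80.7 to 158), and those of the LOY library 13, or 8.55 CPM (4.55 to 14.6). As a share of the Control level, the level in LOY came to 7.46% (3.64 to 14.4). In the other C1q-high cells it was 12.8% (11.1 to 14.7), so the low Y-linked level of the LOY library held for these cells as well.

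Tmem119 was found in a larger share of C1q-high cells of the LOY library. A Tmem119 UMI was seen in 286 of 4973 Control C1q-high cells (5.75%, 5.12 to 6.43) and in 855 of 4285 LOY cells (20.0%, 18.8 to 21.2). The summed levels were 11.6 and 86.1 CPM. Lymphocytes, which should lack the gene, had a Tmem119 UMI in 0 of 1145 Control cells (0 counts allow a share of up to 0.262%, taken as 3 counts of the total, at a median of 2305 UMIs) and 0 of 292 LOY cells (up to 1.03%, at a median of 988.5). Neutrophils had it in 0 of 241 (up to 1.24%) and 0 of 102 cells (up to 2.94%). With every cell thinned to 1000 UMIs, leaving out 40 and 99 shallower cells, the shares among C1q-high cells were 1.16% (0.876 to 1.49) and 8.07% (7.27 to 8.94), so the LOY share was also the higher one at equal depth.

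The kinds of C1q-high cell that the rule left out differed in Tmem119 too. Cells with 2 or more Lyve1 and Timd4 UMIs had the lowest share in both libraries, 2.69% (1.84 to 3.77) in Control and 9.96% (7.53 to 12.9) in LOY. Cells with 2 or more Spp1 and Gpnmb UMIs had 19.2% (13.3 to 26.4) and 29.9% (26.5 to 33.5). At 1000 UMIs per cell these shares became 0.168% and 2.69% for the Lyve1 and Timd4 cells and 3.97% and 12.1% for the Spp1 and Gpnmb cells, the latter with a Control interval of 1.47 to 8.45. Tmem119 was therefore not limited to the cells described here. The Spp1 and Gpnmb cells of the LOY library had 112 CPM of Tmem119 (100.5 to 123.9). The LOY C1q-high cells within every limit had 93.8 CPM (86.7 to 101.4), so the intervals overlapped slightly. Cells with 2 or more Ly6c2 UMIs had the highest level of these kinds in both libraries, 39.2 CPM (24.6 to 59.4) in Control and 133 (113 to 156) in LOY.

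**Figure D1:**
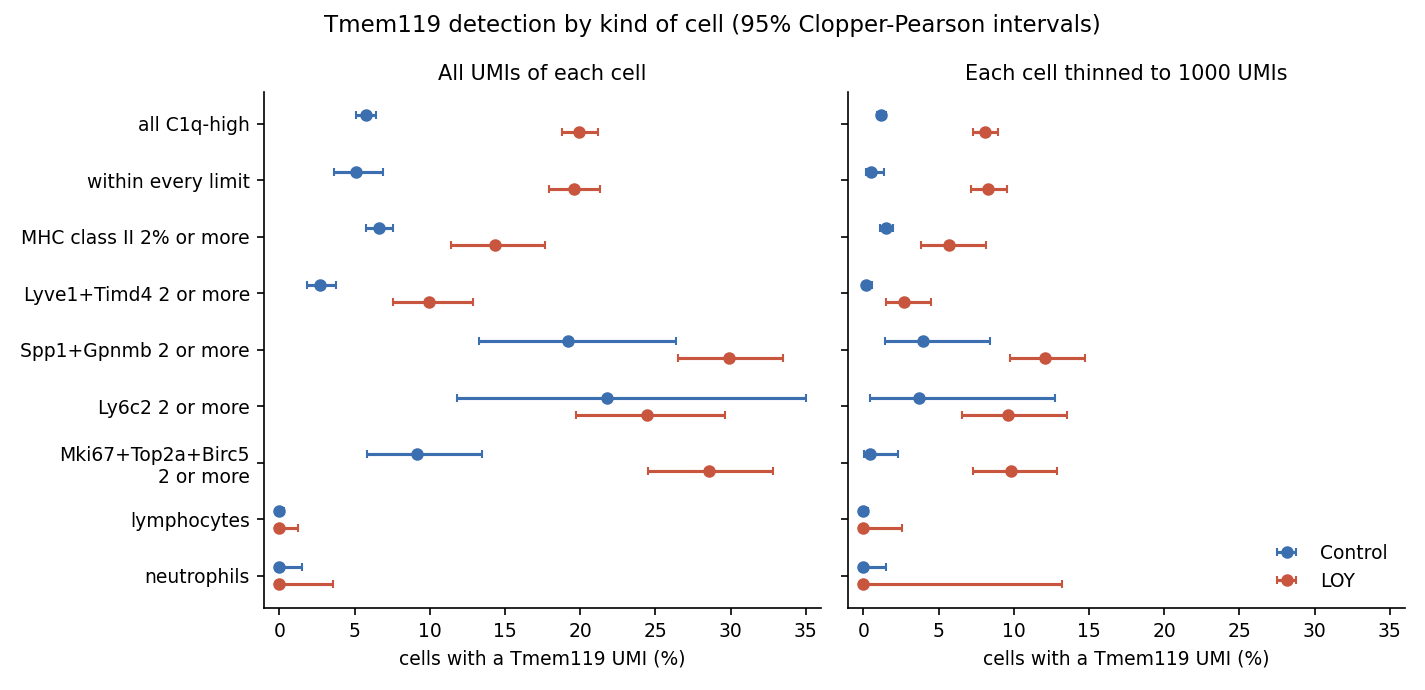
Share of cells with a Tmem119 UMI, in percent, by kind of C1q-high cell and in lymphocytes and neutrophils low in C1q, at full depth (left) and with each cell thinned to 1000 UMIs (right). Points are shares in 1 library and bars are exact 95% intervals. The LOY points lie right of the Control points in every C1q-high kind, the Lyve1 and Timd4 cells are lowest among these, and both kinds of cell low in C1q sit at 0.

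The limits acted differently in the libraries. Of the 286 Tmem119-positive C1q-high cells in the Control library, 214 (74.8%) were over the MHC class II limit, 172 of them over that limit alone, and 39 (13.6%) were within all limits. Of the 855 in the LOY library, 74 (8.66%) were over the MHC class II limit, 206 were over the Spp1 and Gpnmb limit, 135 over the limit for dividing cells, and 420 (49.1%) remained. The difference in number between 39 and 420 cells, or 0.784% and 9.80% of C1q-high cells, therefore joined a lower MHC class II share to a higher Tmem119 level in the LOY library. Among C1q-high cells within every limit, 5.10% (3.65 to 6.91) of 764 Control cells and 19.6% (17.9 to 21.3) of 2146 LOY cells had a Tmem119 UMI. At the edge of the MHC class II limit, 18 Control and 57 LOY cells lay at 1% to 2% and 24 and 32 otherwise fitting cells at 2% to 3%. Most of the chosen cells had a single Tmem119 UMI, 32 of 39 and 269 of 420, and the highest count in a cell was 3 in Control and 7 in LOY.

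To describe these cells beyond the rule, UMIs were summed over cells and set against 2 sets of the same library: all other C1q-high cells (4934 Control, 3865 LOY), and only those within every limit that had 0 Tmem119 UMIs (725 and 1726). The second set shares all limits with the chosen cells. It was shallower, with medians of 5870 UMIs against 7283 in Control and 2867.5 against 3180.5 in LOY, and its median MHC class II share was 0.692% against 0.978% in Control and 0.0466% against 0.0492% in LOY. A cell without a Tmem119 UMI may still express the gene, since 1 UMI is the usual count. Counts of genes past 1.5-fold use CPM with 10 added, and a gene was measured at 10 CPM or more in either set. Against all other C1q-high cells, 10% of 8089 genes were past 1.5-fold higher and 6.98% lower in Control, and 0.383% of 7566 higher and 3% lower in LOY. Against the cells with 0 Tmem119 UMIs, the shares were 8.41% higher and 8.96% lower in Control, and 0.496% and 1.57% in LOY. In Control, 10 CPM was 3.23 UMIs, so counts there hold much counting error. With scaling by the median ratio, the Control ratios moved by -0.11 (log2), and the higher share of the genes past 1.5-fold went from 58.9% to 40.7%.

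Abi3 was the one given marker outside the rule whose fold over other C1q-high cells had an interval above 1 in both libraries. It had 43.4 CPM (14 UMIs in 11 cells) in the Control cells and 19.2 CPM in other Control C1q-high cells, a fold of 2.25 (1.23 to 3.81). In LOY it had 90.1 CPM against 61.5, a fold of 1.46 (1.21 to 1.76). Against cells with 0 Tmem119 UMIs the folds of Abi3 were 2.98 and 1.43, so the direction was the same among cells within the limits.

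Cyp4f18 went in opposite directions. In LOY it had 250 CPM in Tmem119-positive macrophages and 162 in other C1q-high cells, 1.54 times as much (1.38 to 1.72), and 1.73 times the level of cells with 0 Tmem119 UMIs. In Control it had 61.9 CPM against 107, a fold of 0.577 (0.352 to 0.892), and a fold of 0.951 (0.573 to 1.49) against cells with 0 Tmem119 UMIs. The Control difference was thus seen only beside cells outside the limits, where otherwise fitting Control cells at an MHC class II share of 2% to 3% had 174 CPM of Cyp4f18.

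Apoc2 had intervals that held 1 against other C1q-high cells in both libraries. Its Control levels were 27.9 and 18.3 CPM, from 9 UMIs in the Tmem119-positive cells, a fold of 1.53 with an interval of 0.695 to 2.92. Its LOY levels were 154 and 148 CPM, a fold of 1.04 (0.903 to 1.19), and 1.28 (1.09 to 1.48) against cells with 0 Tmem119 UMIs. Of the given markers outside the rule, Abi3 alone was thus higher than in all other C1q-high cells beyond counting error in both libraries. The cells are named here by the gene that chose them. The 4 given markers summed to 282 CPM in the Control cells, 149 of it Tmem119. Spp1 and Gpnmb cells had 306 (32.8) and cells over the MHC class II limit 193 (14.2). In LOY these sums were 919 (425), 622 (112) and 603 (77.5). Outside Tmem119, the marker set was therefore not particular to the chosen cells. Within the LOY cells, those with 2 or more Tmem119 UMIs had 105 CPM of Abi3 and those with 1 UMI 80.2, against 63.0 in cells with 0.

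**Figure D2:**
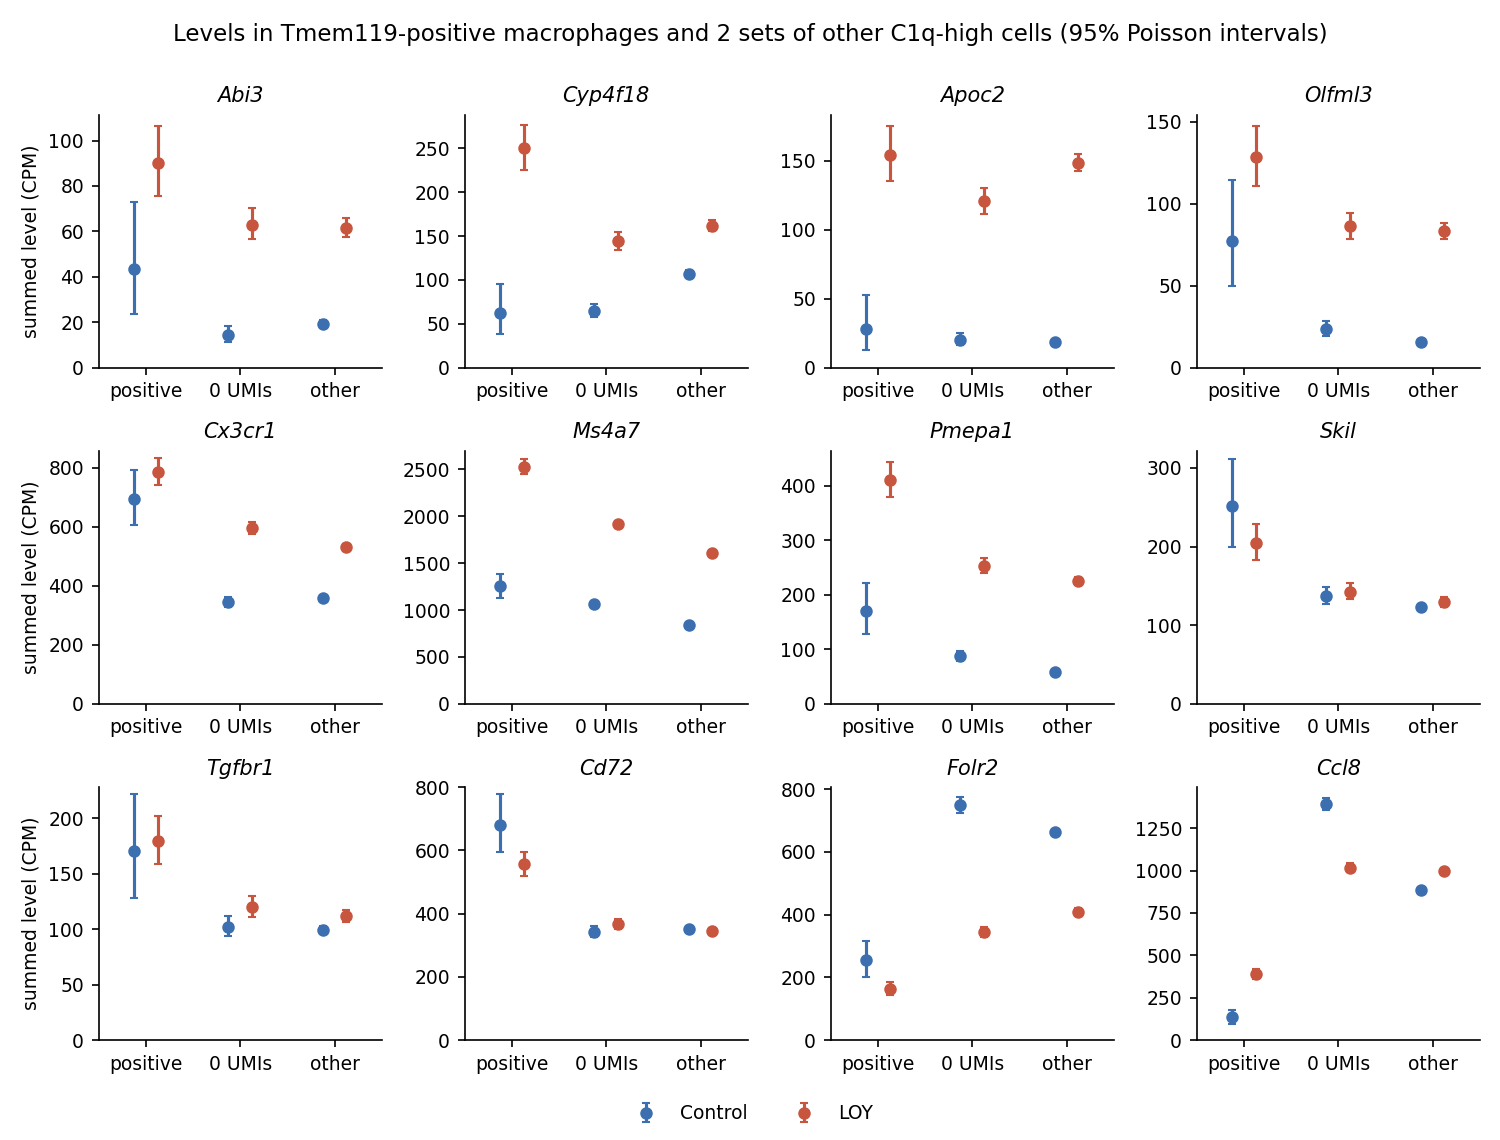
Summed level in CPM of 12 genes in Tmem119-positive macrophages (positive), in C1q-high cells within every limit with 0 Tmem119 UMIs (0 UMIs) and in all other C1q-high cells (other), for the Control and LOY libraries, with exact 95% Poisson intervals. Abi3, Olfml3, Cx3cr1, Ms4a7, Pmepa1, Skil, Tgfbr1 and Cd72 are highest in the positive cells of both libraries, Cyp4f18 only in those of LOY, and Folr2 and Ccl8 are lowest there.

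As Tmem119 is known from microglia, the other genes of that list were read next. Of its 30 genes outside the rule, 22 were measured in each library. In Control 6 were over 1.5-fold higher and 1 lower, with a median log2 ratio of 0.11, and in LOY 1 was higher and 2 lower, with a median of 0.11. The medians over all measured genes were 0.09 and -0.03, so the list as a whole lay near them. Of all measured genes, 10% were higher in Control and 0.383% in LOY. Without the cells rich in other markers, 4 of 22 genes of the list were higher in Control and 1 of 21 in LOY. Defining microglial genes were at or near 0: Sall1, the transcription factor of microglial identity, and Slc2a5, a fructose transporter, had 0 UMIs in the chosen cells of both libraries, and Siglech had 0 and 1. P2ry12, the ADP receptor of resting microglia, had 52.7 CPM against 49.4 in Control and 35.5 against 43.8 in LOY, with folds of 1.07 (0.619 to 1.71) and 0.811 (0.603 to 1.07).

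A few genes of the microglial list did stand higher. Olfml3, a secreted glycoprotein, had 77.4 CPM against 15.8 in Control, a fold of 4.92 (3.15 to 7.34), and 128 against 83.4 in LOY, a fold of 1.54 (1.32 to 1.79). Cx3cr1, the fractalkine receptor, had 694 CPM against 358 in Control (1.94-fold, 1.69 to 2.21) and 785 against 530 in LOY (1.48-fold, 1.39 to 1.58). Both were also higher than in cells with 0 Tmem119 UMIs, Olfml3 at 3.32 and 1.49 times and Cx3cr1 at 2.02 and 1.32 times their level. Ltc4s, the enzyme that makes leukotriene C4, was the lowest of the list in both libraries, at 49.6 against 222 CPM in Control and 125 against 317 in LOY. Sparc, a matrix protein, was higher in Control (37.2 against 3.88 CPM, 12 UMIs in 3 cells) and lower in LOY (5.26 against 17.2).

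Pmepa1, Skil and Tgfbr1, which belong to the TGF-β pathway, were among the 10 genes that stood highest in both libraries. The share of such genes among all ranked genes was not counted, so their number there says nothing about the pathway. Pmepa1, a target of TGF-β that restrains its signal, led the ranking of genes higher in both libraries: it had 170 CPM against 57.5 in Control, a fold of 2.96 (2.22 to 3.87), and 411 against 225 in LOY, a fold of 1.82 (1.67 to 1.98). Skil, a repressor bound to Smad proteins, had 251 against 124 CPM in Control (2.03-fold, 1.61 to 2.53) and 205 against 129 in LOY (1.58-fold, 1.40 to 1.79). Tgfbr1, the type I receptor, had 170 against 99.7 CPM in Control (1.71-fold, 1.28 to 2.23) and 180 against 112 in LOY (1.60-fold, 1.40 to 1.82). Itgb5, an integrin subunit that takes part in TGF-β activation, had 220 against 124 CPM and 217 against 157. Against cells with 0 Tmem119 UMIs, Pmepa1 was 1.95 and 1.62 times as high, Skil 1.83 and 1.43 times and Tgfbr1 1.66 and 1.49 times. Not every gene of the pathway was higher: Id3 had log2 ratios over other C1q-high cells of 0.90 in Control and -0.36 in LOY, there the lowest of the target list. Tgfbr2, the type II receptor, was the lowest measured gene of the list of ligands, activators and receptors in LOY against either set. In Control it was the second lowest against cells with 0 Tmem119 UMIs.

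Over the list of TGF-β signalling and target genes, 5 of 19 measured genes were over 1.5-fold higher and 0 lower in Control, and 3 of 18 higher and 0 lower in LOY. Over all measured genes, 10% were higher in Control and 0.383% in LOY. Against cells with 0 Tmem119 UMIs the list counts were 5 of 19 and 2 of 18 higher, with 0 lower, beside 8.41% and 0.496% of all genes higher. Without cells rich in other markers, 5 of 19 were higher and 1 lower in Control against either set. With all cells, the list medians were 0.23 and 0.17 against all other C1q-high cells. The list of ligands, activators and receptors had a median of 0.72 in Control and 0.13 in LOY, but without the 2 Control cells rich in other markers its Control median was -0.06. The ratios of Pmepa1, Skil and Tgfbr1 without those cells were 1.35, 1.08 and 0.80 in Control and 0.84, 0.61 and 0.65 in LOY (log2), close to those with them (1.42, 0.96 and 0.72, and 0.84, 0.62 and 0.63). The list was chosen with earlier results of these libraries known.

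Other genes high in both libraries came from cell-surface and matrix functions. Cd72, an inhibitory receptor of B cells and macrophages, had 681 against 352 CPM in Control (1.93-fold, 1.69 to 2.21) and 556 against 345 in LOY (1.61-fold, 1.5 to 1.74). Ms4a7, a four-span membrane protein of macrophages, had 1251 against 842 CPM in Control and 2526 against 1609 in LOY. Sema4d, a semaphorin, had 83.6 against 42.7 CPM and 90.8 against 58.2, and Zmynd15, a zinc finger protein, 58.9 against 30.0 and 71.7 against 37.9. Mmp14, the membrane-bound matrix protease that also activates other proteases, had 68.1 against 10.6 CPM in Control, from 22 UMIs in 10 cells, and 55.3 against 32.9 in LOY. Col14a1, a fibril-associated collagen, had 152 against 38.7 CPM in Control and 91.5 against 56.8 in LOY. Without the cells rich in other markers the log2 ratios of Mmp14 were 1.84 and 0.60 and those of Col14a1 1.69 and 0.61, about as large as with them (1.92 and 0.60, and 1.73 and 0.60). Against cells with 0 Tmem119 UMIs, Ms4a7 had smaller log2 ratios, 0.23 in Control and 0.40 in LOY, from 0.57 and 0.65. Col14a1 had 1.46 and 0.28 and Cd72 0.97 and 0.58. Sema4d had 1.07 and 0.50, Zmynd15 0.96 and 0.68 and Mmp14 2.21 and 0.65.

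Genes of the resident macrophage list were lower in the chosen cells. The list name does not give the origin of a cell, since the labels call all the sorted cells derived from the transplant. In Control 16 of 21 measured genes were over 1.5-fold lower and 0 higher than in other C1q-high cells (median log2 ratio -1.05), and in LOY 15 of 21 were lower and 0 higher (median -1.18). The Lyve1 and Timd4 limit bears on that comparison, but the cells with 0 Tmem119 UMIs meet it too, and against them 16 of 21 genes in Control and 13 of 19 in LOY were lower, with medians of -0.98 and -0.85. Over all measured genes, 6.98% in Control and 3% in LOY were lower than in other C1q-high cells. Against cells with 0 Tmem119 UMIs these shares were 8.96% and 1.57%. Folr2, a folate receptor, had 254 against 662 CPM in Control (0.384 times, 0.305 to 0.477) and 164 against 409 in LOY (0.400 times, 0.351 to 0.455). Mgl2, a galactose-binding lectin, had 158 against 463 CPM and 51.3 against 159, and F13a1, the A subunit of coagulation factor XIII, 313 against 754 and 200 against 655. Fcna, the lectin ficolin A, had 15.5 against 83.3 CPM and 29.0 against 131. Mrc1, the mannose receptor, was less far apart, at 480 against 786 CPM and 463 against 699. Igf1, a growth factor of resident macrophages, was at 331 against 316 CPM in Control and 111 against 198 in LOY.

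Several chemokines and complement genes were lower as well. Ccl8 had 133 against 887 CPM in Control and 389 against 996 in LOY, although 74.4% of the Control UMIs came from 1 cell. Ccl6 had 365 against 1172 CPM and 518 against 1237. Of the measured chemokines 4 of 18 were higher and 8 lower in Control, and 0 of 17 higher and 6 lower in LOY. Of the measured complement genes 2 of 12 were higher and 4 lower in Control, and 0 of 11 higher and 3 lower in LOY. Without the cells rich in other markers, 1 of 11 complement genes was higher and 4 lower in Control. Over all measured genes, 10% were higher and 6.98% lower in Control, and 0.383% and 3% in LOY. C4b, a complement component of the classical pathway, had 149 against 240 CPM and 61.2 against 138. C3, the central complement component, was higher, at 83.6 against 23.6 CPM in Control (27 UMIs in 6 cells) and 43.4 against 27.6 in LOY. Gas6, a bridging protein for dying cells, had 136 against 292 CPM and 71.7 against 178. Chp2, a calcium-binding protein, had 27.9 against 92.9 CPM and 9.21 against 53.5. Stmn1 and Hist1h1b, genes of dividing cells, were also low, which the limit on Mki67, Top2a and Birc5 fixes: against cells with 0 Tmem119 UMIs the log2 ratios of Stmn1 were -0.01 and 0.16.

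**Figure D3:**
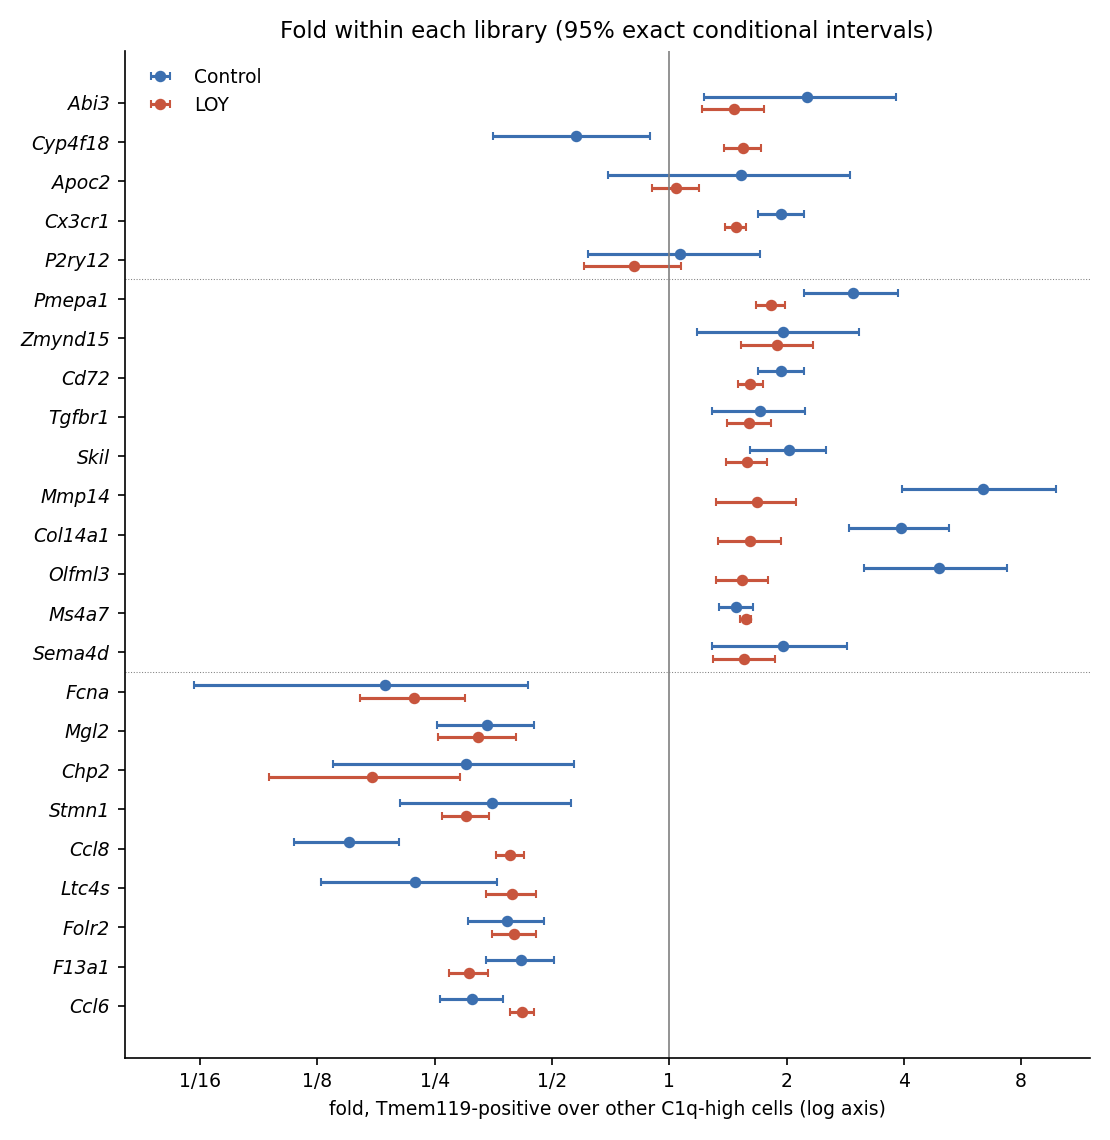
Fold of the summed level in Tmem119-positive macrophages over all other C1q-high cells, on a log axis, in the Control and LOY libraries, with exact 95% intervals. The upper block holds 3 given markers and 2 microglial genes, the middle block the 10 highest and the lower block 9 of the 10 lowest genes (Hist1h1b, with 0 Control UMIs, is not drawn). Cyp4f18 is the only gene drawn whose intervals lie on opposite sides of 1.

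Ccr2, the receptor that brings monocytes into tissue, was compared because Ly6c2 had removed monocyte-like cells. It had 310 against 348 CPM in Control and 340 against 246 in LOY, folds of 0.890 (0.723 to 1.08) and 1.38 (1.26 to 1.51). Against cells with 0 Tmem119 UMIs it was higher in both libraries, 1.69 and 1.57 times. The list of recruited monocyte genes had a median of 0.58 in Control, with 8 of 17 higher and 1 lower, and of -0.10 in LOY, with 0 of 16 higher and 2 lower. Against cells with 0 Tmem119 UMIs the medians were 0.67, with 10 of 17 higher and 2 lower, and 0.15, with 2 of 16 higher and 1 lower, so the LOY median changed its sign with the comparison set. Without the cells rich in other markers, the Control median against all other C1q-high cells was 0.36, with 7 of 15 higher and 2 lower, and with excluded gene sums of 0 UMIs it was -0.17. Plac8, the gene farthest apart in Control (204 against 38.8 CPM), had UMIs in 3 of 39 cells. Over all measured genes, 10% were higher and 6.98% lower in Control, and 0.383% and 3% in LOY, against all other C1q-high cells. Genes of macrophage growth factor receptors and their factors, Csf1r among them, had 0 of 10 past 1.5-fold in either library.

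Between the libraries, the comparison within Tmem119-positive macrophages sets 39 Control cells against 420 LOY cells. Of 8004 measured genes, 10.2% were over 1.5-fold higher in LOY and 22.3% lower, with a median log2 ratio of -0.17. In other C1q-high cells the shares were 6.58% higher and 7.88% lower of 7857 genes, with a median of -0.02. In cells with 0 Tmem119 UMIs the shares were 4.51% higher and 10.9% lower of 7851 genes, with a median of -0.11. Scaling by the median ratio moved the ratios in Tmem119-positive macrophages by 0.14, and the higher share of genes past 1.5-fold went from 31.4% to 47.5%. The Control cells had a larger mitochondrial share (3.42% against 1.99% of UMIs) and a smaller share of ribosomal protein genes (13.4% against 18.7%). With levels computed without both groups of genes, 1092 genes were over 1.5-fold higher and 1789 lower, against 817 and 1785, and the higher share was 37.9%.

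Among the given markers, the ratio of Cyp4f18 lay farthest from that in other C1q-high cells. It was 4.04 times as high in LOY as in Control within Tmem119-positive macrophages (2.58 to 6.68), from 61.9 and 250 CPM, and 1.51 times in other C1q-high cells. In cells with 0 Tmem119 UMIs it had 65.1 CPM in Control and 144 in LOY. The log2 ratios of these 3 sets were 1.85, 0.55 and 1.04. The other C1q-high cells differed in make-up: 3237 of 4973 C1q-high cells in Control and 517 of 4285 in LOY were over the MHC class II limit. Apoc2 was 5.52 times as high (2.86 to 12.2) and 8.12 times in the others. Abi3 was 2.08 times as high (1.20 to 3.90) and 3.20 times in the others. Apoe, the main apolipoprotein of macrophages, was 2.94 times as high in LOY (2.85 to 3.03) in Tmem119-positive macrophages and 1.60 times in the others. In Control it had 14050 CPM in the chosen cells against 22570 in the others, and in LOY 41297 against 36080. Of its 4536 Control UMIs, 46.9% came from 5 of 39 cells, a spread that the interval does not cover. Pmepa1 was 2.41 times as high (1.83 to 3.24) and 3.92 times in the others, while Skil (0.816, 0.637 to 1.05) and Tgfbr1 (1.05, 0.787 to 1.44) had intervals that held 1. Whether these ratios differ between the sets of cells was not tested.

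Immediate early and heat shock genes, which answer stress and cell handling, were lower in LOY in both sets of cells. In Tmem119-positive macrophages 19 of 26 were over 1.5-fold lower and 0 higher (median -1.19), and in other C1q-high cells 22 of 26 were lower (median -1.27). Over all measured genes, 22.3% and 7.88% were lower in these sets. Klf2, a transcription factor that quiets macrophages, had 846 CPM in Control and 107 in LOY. Cebpb, a transcription factor of inflammation, had 672 and 90.8, and Btg2, an inhibitor of cell growth, 1192 and 186. Their log2 ratios were -2.87, -2.76 and -2.62, beside -2.40, -2.52 and -2.78 in the other C1q-high cells. Jun was at 824 and 836 CPM. With 1 library per group, the marrow and the handling of the cells cannot be told apart.

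Inflammatory cytokine genes were lower in LOY in 9 of 11 measured genes within Tmem119-positive macrophages (median -1.28) and in 4 of 11 in the others (median -0.52). Over all measured genes, 22.3% were lower and 10.2% higher in Tmem119-positive macrophages, and 7.88% and 6.58% in the others. List counts of the 2 sets therefore stand on unlike backgrounds. Tnf, the cytokine, had 112 CPM in Control and 40.1 in LOY, a fold of 0.360 (0.235 to 0.560). Its 36 Control UMIs came from 12 of 39 cells, 72.2% of them from 5 cells. Cxcl2, a chemokine for neutrophils, had 1601 and 240 CPM, but its 517 Control UMIs came from 12 of 39 cells. MHC class I genes had 8 of 17 lower and 0 higher in both sets, with medians of -0.50 and -0.47. H2-D1 had 3835 CPM in Control and 1621 in LOY, and B2m, the light chain shared by class I molecules, 3057 and 1717. Interferon response genes had a median of 0.16, with 3 of 21 higher and 2 lower, beside 0.47 and 10 of 21 higher in the other C1q-high cells. Without the cells rich in other markers the median was 0.08, with 1 of 21 higher and 3 lower, beside 0.47 and 9 of 21 higher.

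The genes farthest apart between the libraries included several held by few cells. Dcn, Bgn and Gsn, matrix and actin-severing genes high in fibroblasts, had log2 ratios of LOY over Control of -4.99, -3.59 and -2.39. Without the cells rich in other markers these were -0.74, 0.49 and -0.54, so Bgn turned its direction. Des and Tnnt2, cardiomyocyte genes, had 2.59 and 2.33 and, without those cells, 1.68 and 1.18. Id3, a TGF-β and BMP target, had 211 and 15.8 CPM, its 68 Control UMIs coming from 8 cells. Cd9, a tetraspanin, had 570 CPM in 31 of 39 Control cells and 77.0 CPM in 80 of 420 LOY cells, a log2 ratio of -2.74 beside -1.14 in the others. Pfn1, an actin-binding protein, had 1911 and 355 CPM, with -2.39 and -1.80. Ly6a, the surface antigen Sca-1, had 208 and 940 CPM (4.53-fold, 3.54 to 5.88), beside 3.81-fold in the others. Lig1, a DNA ligase, Cela1, an elastase, and Vipas39 rested on 3, 2 and 3 Control UMIs, with folds of 8.64 (2.89 to 42.5), 10.5 (2.84 to 88.0) and 5.67 (1.87 to 28.1). Syngr1, a vesicle protein, and Mrps34, of the mitochondrial ribosome, had 4 and 6 Control UMIs and folds of 5.95 (2.26 to 22.2) and 4.0 (1.78 to 11.1).

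**Figure D4:**
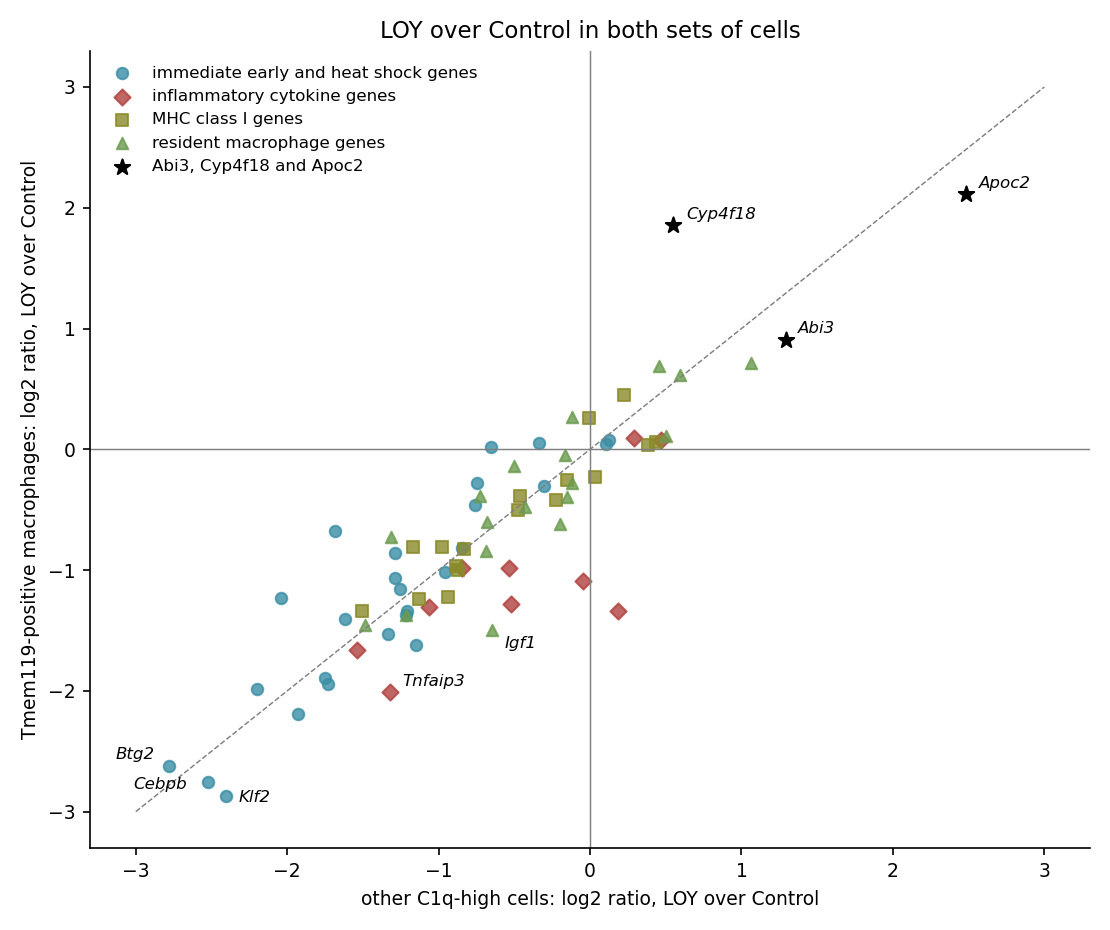
Log2 ratio of LOY over Control in Tmem119-positive macrophages (vertical) and in other C1q-high cells (horizontal) for genes of 4 lists and 3 given markers, each point 1 gene, with a dashed line where both are equal. Immediate early genes such as Klf2 (-2.87 and -2.40) lie far to the lower left, and Cyp4f18 (1.85 and 0.55) lies above the line.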

How the data were processed

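A droplet 3' kit of 10x Genomics was used, per the labels' protocols. The authors deposited whole-number UMI counts for each gene in each barcode, not normalized, and their processing notes name Cell Ranger 5.0.0 and build mm10. Barcodes entered with 500 UMIs or more, 200 genes or more and a mitochondrial share of 10% or less. The members and gene lists were chosen with earlier results of these data known; the listed symbol Sepp1 is not among the feature symbols. No doublet caller was run, and alternatives removed cells by marker UMIs or a UMI ceiling. UMIs were summed per set of cells and library and divided by the total (CPM); log2 ratios add 10 CPM to both levels, so differences between low levels come out too small, and folds are plain ratios. Intervals are exact Poisson (levels), exact conditional (folds) and Clopper-Pearson (shares), at 95%. Thinning drew UMIs without replacement (seed 1). Named genes are the given markers, the rule, microglial and Y-linked genes, the 10 highest and 10 lowest genes whose ratios share a sign in both libraries, the 10 highest and lowest of LOY over Control (50 CPM and 50 UMIs or more), and list members at the extremes. Mrc1 and B2m were named after their values were seen. A few genes of the lists are not reported here by name. Positions are from GENCODE M21. The code was tested on simulated data (Python 3.11.15, numpy 2.4.6, scipy 1.17.1, pandas 2.3.3, matplotlib 3.10.9).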

Additional observations from a re-analysis of the deposited data

Results flagged for a closer look

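Of 56 named genes compared between the libraries, 3 had log2 ratios of Tmem119-positive macrophages over other C1q-high cells past 1.5-fold in opposite directions. Cyp4f18 had -0.71 in Control and 0.60 in LOY, but -0.06 and 0.75 against cells with 0 Tmem119 UMIs. Dcn had 4.58 and -1.0, and Sparc 1.77 and -0.83. Without cells rich in other markers, Cyp4f18 had -0.66 and 0.61, Dcn 0.29 and -0.24, and Sparc 0.31 and -0.18. With 1 library per group the difference between the libraries was not tested for any of these genes.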

How the results depend on the processing

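Each choice was changed alone, and of 1030 values of single genes 860 moved little, 166 moved and 4 turned, all 4 being Bgn, LOY over Control: 0.62 with excluded gene sums of 0 UMIs, 0.54 with MHC class II under 1%, 0.50 without cells over 3 times the median UMIs and 0.49 without cells rich in other markers (20 or more UMIs), an alternative chosen after seeing the data. The median of TGF-β ligands, activators and receptors in Control turned under the last 3 of these, to -0.26, -0.077 and -0.057; of 874 list medians 2 others moved. The share of C1q-high cells chosen (0.784% in Control, 9.80% in LOY) was 0.141% and 3.52% with 2 Tmem119 UMIs, 0.503% and 6.32% with sums of 0, 0.422% and 8.47% with MHC class II under 1%, 0.182% and 6.08% thinned to 1000 UMIs, and in Control 0.350% thinned to 2000 and 0.429% without cells of 2 or more marker UMIs. The LOY share was the higher one in each. Genes past 1.5-fold in Control (810 higher, 565 lower) numbered 1271 and 1204 with MHC class II under 1%, 1378 and 972 with 1 CPM added, 90 and 70 with 50 CPM added, 258 and 144 among genes at 50 CPM, 514 higher with median-ratio scaling and 1054 lower with sums of 0. In LOY (29 and 227) they numbered 150 and 354 with 2 Tmem119 UMIs, 499 and 880 thinned to 1000, 126 and 348 thinned to 2000, 137 and 498 without cells of 2 or more marker UMIs, 144 and 512 with 1 CPM added, 5 and 55 with 50 added, 16 and 75 among genes at 50 CPM, 56 higher with sums of 0, 49 higher without mitochondrial and ribosomal protein genes and 117 lower against cells with 0 Tmem119 UMIs. LOY over Control (817 and 1785) gave 207 and 405 with 50 CPM added, 368 and 724 among genes at 50 CPM, and 1239 and 1305 higher with sums of 0 and MHC class II under 1%. The cause of these moves was not tested. With 2 Tmem119 UMIs, thinning, or the removal of cells of 2 or more marker UMIs, the Control cells held 67508, 9000, 34000 and 22414 UMIs, where 10 CPM is under 1 UMI, so no Control ratios were made. The 39 Control cells and their 322850 UMIs limit every Control level. No paired analysis was possible because each group is 1 library.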
